A study of Mus musculus with 7 samples.

Results

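The genes of the small RNA pathway were followed in mini-oocytes, which are oocyte-like cells made from mouse embryonic stem cells (mESCs) by forced expression of oocyte transcription factors. The set holds 10 of the 55364 genes listed in the expression table. They were chosen by symbol and not by a rule on measured values, though earlier results of these data were known. They are Drosha and Dgcr8, which make up the Microprocessor, Xpo5, the nuclear export receptor of its products, Dicer1 with its partners Tarbp2 and Prkra, and the Argonaute genes Ago1, Ago2, Ago3 and Ago4. All 10 passed the filter on low values, which kept 21780 genes that reached 1 TPM in 2 or more libraries. TPM is a read number corrected for exon length and given as a part of the library's total. Levels of different genes can thus be set side by side, within a limit from exon lengths given below. RNA was measured in 7 libraries from BVSC H18, a female mESC line of a hybrid 129/C57BL6 background. The 4F line carries Nobox, Figla, Tbpl2 and Lhx8, and the 8F line carries the same 4 factors with Stat3, Dynll1, Sub1 and Sohlh1. The factors were stabilised by Shield1 in medium with SCF and Y-27632 and without somatic cells, and Shield1 was left out of fresh medium from day 12. At day 7 there are 2 libraries of 4F-mini-oocytes, each from 1000 pooled cells, and at day 21 there are 3 of the 4F and 2 of the 8F line, each from 10 pooled cells. Every group thus comes from the same parental line. Day 7 differs from day 21 in time, in Shield1 in fresh medium and in the number of pooled cells, which cannot be told apart. In short, Ago1, Ago2 and Ago4 were lower at day 21 than at day 7, Dicer1 was at 125 to 157 TPM in every library, and no gene of the set passed the test between the 2 factor sets at day 21.

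Small RNAs guide Argonaute proteins to messenger RNAs that pair with them. MicroRNAs are cut from hairpins by the Microprocessor in the nucleus, exported, and cut again by Dicer, whereas endogenous small interfering RNAs (endo-siRNAs) come from long double-stranded RNA and need Dicer but not the Microprocessor. Growing mouse oocytes are known for abundant endo-siRNAs and for weak microRNA activity, and they make a short Dicer isoform whose transcript starts in a transposable element inside a Dicer1 intron and which processes long double-stranded RNA well. Ago2 is the mammalian Argonaute with strong slicing activity, and in mouse oocytes both Dicer1 and Ago2 are needed for meiotic maturation. Which members of this machinery are expressed in mini-oocytes, and whether they change with time or with the factor set, is what the comparisons below address.

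The libraries held between 9515596 and 18045745 reads on genes, estimated from the steps of low TPM values. All 8 listed oocyte markers were at or above 1 TPM in every library. They include Zp3, a zona pellucida gene, and Gdf9, an oocyte growth factor gene. Their summed level was 9054 to 10932 TPM in 4F at day 7. At day 21 it was 34516 to 39168 TPM in 4F and 28302 to 28540 TPM in 8F. The list also holds Nobox, a forced factor of both lines, so its presence was set by the design. The paper states that measured Nobox expression includes that of the transgene. Nobox was at 662 to 701 TPM at day 7 and at 1009 to 1254 TPM at day 21, and these values are part of the sums. Of 5 granulosa cell markers, none reached 1 TPM in every library and Inha was listed at 0 in every library, with sums of at most 3.98 TPM. Of 4 fibroblast and mesenchyme markers, none reached 1 TPM in every library, and their sums were 0.143 to 5.44 TPM. The 5 endoderm and trophoblast markers summed to 1111 to 1587 TPM at day 7, carried by the keratin genes Krt8 (660 and 863 TPM) and Krt18 (436 and 658 TPM). At day 21 they summed only to 70.0 to 183 TPM in 4F and to 121 TPM in both 8F libraries. In 8F the largest part was Gata4 (95.4 and 87.8 TPM), with Krt8 at 24.4 and 33.2 TPM. The pluripotency markers summed to 61.1 to 81.9 TPM at day 7 and to 224 to 343 TPM in 4F and 123 to 164 TPM in 8F at day 21. Pou5f1 was the largest part at day 21, at 154 to 267 TPM in 4F and 73.7 and 103 TPM in 8F. At day 7 it was at 24.4 and 30.1 TPM. Esrrb was higher at day 21 too, and Klf4 was higher in 4F. Zfp42 was lower at day 21, Sox2 reached at most 3.59 TPM, and Nanog was at 0 in 6 of 7 libraries. The labels do not say whether replicates came from separate cultures, so the p-values below measure only the spread between these libraries. In bulk libraries, fewer cells of a type and less RNA per cell cannot be told apart.

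The values are per gene and do not separate isoforms, and the gene model of Dicer1 bears on this. Dicer1 lies on chr12:104687742-104751952 (mm10, minus strand), and its exons cover 16750 bases over 6 annotated transcripts, of which the full-length coding transcript holds 9851 (58.8%). Intron 6 of that transcript, chr12:104724071-104728332, spans 4262 bases and lies wholly inside an exon of an annotated retained-intron transcript. It therefore makes up 25.4% of the exon bases of the gene, and reads from this intron count towards Dicer1. Ago3, Ago1 and Ago4 lie next to each other in this order on the minus strand of chromosome 4, within 201.769 kb (chr4:126331704-126533472), while Ago2 lies alone on chr15:73095844-73184935. Drosha (chr15:12824815-12935291) and Xpo5 (chr17:46202782-46243598) share little or no exon sequence with other genes, 72 bases for Drosha and 0 bases for Xpo5. Dgcr8 (chr16:18253948-18289246) shares 825 exon bases (10.7%) with Trmt2a on the opposite strand, 327 (4.25%) with the protein-coding gene Gm49776 on the same strand, and 88 and 79 with microRNA genes. Ago2 shares 219 exon bases with Chrac1 on the opposite strand. No strand option is stated for the counting, so the levels of Dgcr8 and Ago2 are uncertain by the reads that fall there. Tarbp2 (chr15:102518192-102523676) and Prkra (chr2:76629898-76648015) share no exon bases with other genes.

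Within libraries the set spanned a wide range of levels, with Drosha and Dicer1 on top in all 7 libraries. The exon length behind TPM covers all annotated transcripts of a gene. The longest coding transcript holds 33.5% of it for Tarbp2, 56.1% for Dgcr8 and 58.8% for Dicer1. For the other genes it holds 74.1% (Xpo5) to 98.4% (Ago2). The order of genes and ratios between genes therefore depend on which transcripts are made, which was not tested. Dicer1 stood between the 92.9 and the 97.1 percentile of the genes tested, and Drosha between the 93.4 and the 97.5 percentile, against 21.4 to 53.0 for Prkra and 12.7 to 57.8 for Ago4. In 4F at day 21 the levels followed the order Drosha, Dicer1, Xpo5, Ago2, Tarbp2, Ago3, Dgcr8, Ago1, Prkra and Ago4. In that order the neighbours Ago2 and Tarbp2, Tarbp2 and Ago3, and Ago3 and Dgcr8 overlapped in their ranges over libraries, and the other neighbours did not. In 8F at day 21 Dicer1 led, with an overlap with Drosha, and Tarbp2 stood above Ago2 and Prkra above Ago1 without overlap. At day 7 each of Xpo5, Ago1, Ago3, Tarbp2 and Dgcr8 overlapped with its neighbour in this order, Ago2 stood next after Dicer1 and Drosha in both libraries, and Prkra was lowest in both.

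**Figure D1:**
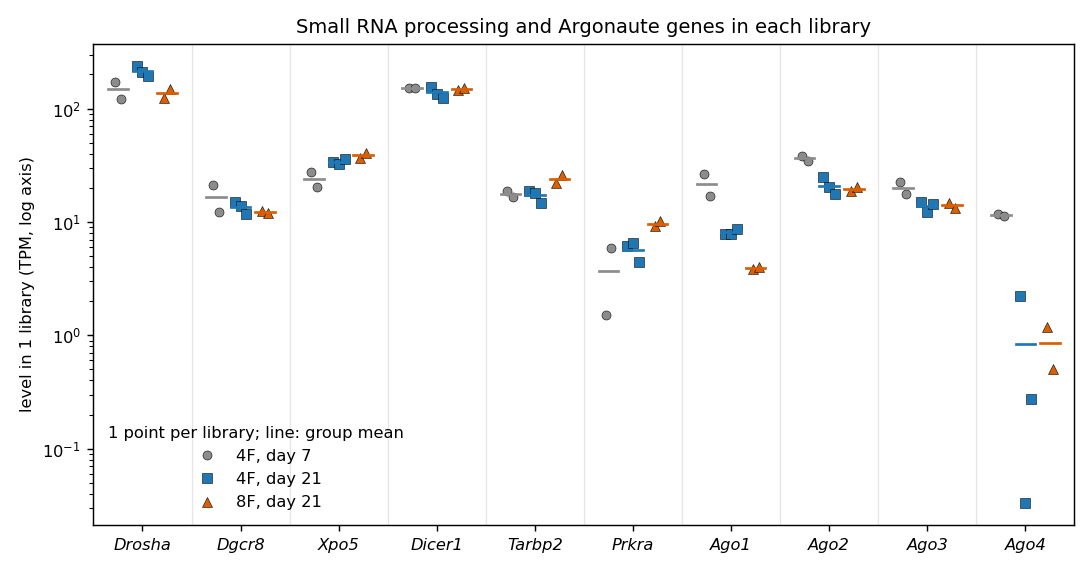
Level of each gene in each library in TPM on a log axis, with 1 point per library, grouped by gene along the horizontal axis, and short lines at group means. Dicer1 and Drosha sit above 100 TPM in every library, and Ago4 drops from 11.3 to 11.8 TPM in 4F at day 7 to at most 2.21 TPM in the day 21 libraries.

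The Microprocessor and export genes did not pass the test with time in 4F. Drosha, the nuclease that cuts microRNA hairpins out of their precursors, was at 173 and 122 TPM in the day 7 libraries, at 238, 209 and 193 TPM in 4F at day 21, and at 125 and 148 TPM in 8F at day 21. Its 4F day 21 values lie above all others, while the day 7 and 8F ranges overlap. The difference from day 7 to day 21 in 4F was 0.55 ± 0.18 (SE) in log2(TPM + 1), with limma's adjusted p = 0.051. This difference depends on the scaling of the libraries and on the day 7 libraries: it was 0.80 with adjusted p = 0.0166 without day 7 replicate 1, and -0.07 after quantile normalization. Dgcr8, the RNA-binding partner of Drosha, was far lower, at 21.1 and 12.3 TPM at day 7, at 14.9, 13.8 and 11.7 TPM in 4F at day 21 and at 12.4 and 12.0 TPM in 8F. All 3 groups overlap, and day 21 minus day 7 in 4F was -0.25 ± 0.28 (SE, adjusted p = 0.517). The ratio of Drosha to Dgcr8 in TPM was 8.20 and 9.96 at day 7, 15.2 to 16.5 in 4F at day 21 and 10.0 and 12.4 in 8F.

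Xpo5, which carries microRNA precursors to the cytoplasm, was at 27.7 and 20.4 TPM at day 7, at 33.6, 32.5 and 35.9 TPM in 4F at day 21 and at 36.9 and 40.8 TPM in 8F. The groups do not overlap, and the level is lowest at day 7. In 4F the difference of 0.50 ± 0.17 (SE) did not pass the threshold (limma, adjusted p = 0.0592), and it was -0.01 with voom on reads recovered from the TPM. Between 8F at day 21 and 4F at day 7 the difference of 0.68 ± 0.19 (SE) passed (adjusted p = 0.03), as it did in 9 of 18 other settings. The call was lost under each other scaling, with 0.36 after median-of-ratios rescaling (adjusted p = 0.144), 0.34 after quantile normalization (adjusted p = 0.189) and 0.34 with voom (adjusted p = 0.162). It was also lost without either 8F library (adjusted p = 0.114 and 0.179) and without day 7 replicate 2 (adjusted p = 0.0985).

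The levels of Dicer1 overlapped in the 3 groups. It was at 152 and 151 TPM at day 7, at 157, 135 and 125 TPM in 4F at day 21 and at 147 and 151 TPM in 8F. Day 21 minus day 7 in 4F was -0.13 with a 95% interval from -0.42 to 0.15 (limma, adjusted p = 0.426), and 8F minus 4F at day 21 was 0.11 with an interval from -0.18 to 0.39 (adjusted p = 0.679). Other scalings place Dicer1 lower at day 21 than at day 7 in 4F: the difference was -0.48 with median-of-ratios rescaling (adjusted p = 0.0252), -0.75 with quantile normalization (adjusted p = 0.00397) and -0.67 with voom (adjusted p = 0.000316). The median over all 21780 genes tested was 0.17 in TPM and -0.06 after median-of-ratios rescaling, so relative to the median gene Dicer1 differed by -0.30. The ratio of Drosha to Dicer1, which no scaling of a whole library changes, was 1.14 and 0.810 at day 7, 1.52 to 1.55 in 4F at day 21 and 0.847 and 0.982 in 8F.

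The double-stranded RNA-binding partners of Dicer had their highest values in 8F, and neither passed the test. Tarbp2 was at 18.8 and 16.8 TPM at day 7, at 18.7, 18.0 and 14.7 TPM in 4F at day 21 and at 22.0 and 26.2 TPM in 8F. The 8F libraries do not overlap with the others. The difference of 8F minus 4F at day 21 was 0.47 with a 95% interval from -0.00032 to 0.942 (limma, adjusted p = 0.224). Prkra was at 1.51 and 5.95 TPM at day 7, at 6.10, 6.47 and 4.47 TPM in 4F at day 21 and at 9.14 and 10.2 TPM in 8F. Its 8F libraries again lie above the rest, with a difference from 4F at day 21 of 0.69 ± 0.49 (SE, adjusted p = 0.492). Prkra rests on an estimated 12 and 63 reads at day 7 and on 38 to 117 reads at day 21, and the spread between the day 7 libraries is wide. Without day 7 replicate 2, day 21 minus day 7 in 4F was 1.40 (adjusted p = 0.0498), and without day 7 replicate 1 it was -0.07.

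Of the Argonaute genes, Ago1, Ago2 and Ago4 were lower at day 21 than at day 7 in 4F. The summed level of all 4 was 98.8 and 80.8 TPM at day 7, 49.9, 40.2 and 40.9 TPM in 4F at day 21 and 38.5 and 38.2 TPM in 8F at day 21. The sums at day 7 lie above all of day 21, but the exact two-sided permutation test over 2 and 3 libraries gave p = 0.2, the smallest it allows. The promoters of Ago1, Ago3 and Ago4 are shown because these genes lie in a row on the chromosome and Ago1 and Ago4 both fell. Ago3 was lower too but did not pass. RefSeq lists 2 starts for Ago1, of which the one nearest to the annotated start of the gene was used. Each stretch is the 250 bases before the RefSeq start of the gene (GRCm38.p6, minus strand, 5′ to 3′), with GC boxes (GGGCGG on either strand) in capitals.
Ago1, chr4:126468584-126468833: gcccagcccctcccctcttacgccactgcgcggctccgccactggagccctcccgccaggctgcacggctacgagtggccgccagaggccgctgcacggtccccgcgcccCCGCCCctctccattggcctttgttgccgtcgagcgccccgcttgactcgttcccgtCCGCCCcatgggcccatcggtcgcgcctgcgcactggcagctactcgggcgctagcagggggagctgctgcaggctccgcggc
Ago3, chr4:126429543-126429792: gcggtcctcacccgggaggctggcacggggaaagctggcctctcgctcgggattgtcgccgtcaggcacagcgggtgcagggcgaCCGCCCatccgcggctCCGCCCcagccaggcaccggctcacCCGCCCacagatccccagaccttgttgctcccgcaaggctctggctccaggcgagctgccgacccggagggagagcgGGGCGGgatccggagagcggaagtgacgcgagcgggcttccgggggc
Ago4, chr4:126533459-126533708: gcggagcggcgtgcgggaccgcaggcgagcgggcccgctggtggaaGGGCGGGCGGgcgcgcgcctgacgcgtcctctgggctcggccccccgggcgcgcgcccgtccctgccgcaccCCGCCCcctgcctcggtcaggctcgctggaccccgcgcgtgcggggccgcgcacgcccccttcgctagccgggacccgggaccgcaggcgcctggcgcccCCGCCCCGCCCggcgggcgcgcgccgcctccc

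All 3 stretches are rich in G and C, with 74.4% for Ago1, 73.6% for Ago3 and 85.6% for Ago4, against a median of 52.4% over 32851 RefSeq promoters of the same length. They hold 2, 4 and 5 GC boxes. RefSeq gave a promoter for 9 of the 10 genes, all but Ago2. A GC box was present in 8 of the 9, against 32.7% of all promoters. The E-box CANNTG was in 2 of the 9 (Dgcr8 and Tarbp2), against 66.2% of all, and the TATA box TATAAA was in 0 of the 9, against 12.4%. TAATTG and TAATTA, letters of the element bound by Nobox, were in 0 of the 9, against 7.17% and 4.84% of all promoters. All motifs were searched on both strands, and matches may overlap, as the GC boxes of Ago4 do. The 9 promoters held 60% (Tarbp2) to 85.6% (Ago4) G and C, and the shares over all promoters were not matched for this content. Whether the motif counts differ beyond base composition was not tested. These counts describe letters in a short window.

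Ago1, an Argonaute without strong slicing activity, was at 26.4 and 17.1 TPM at day 7, at 7.89, 7.77 and 8.63 TPM in 4F at day 21 and at 3.82 and 3.99 TPM in 8F. The 3 groups do not overlap and the 8F libraries are the lowest. In 4F the mean at day 21 was 2.68-fold lower than at day 7, a difference of -1.29 ± 0.29 (SE) in log2(TPM + 1) with limma's adjusted p = 0.0123. It passed in 17 of 18 other settings, and without day 7 replicate 1 it was -0.99 with adjusted p = 0.0781. Relative to the median gene the difference was -1.46.

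Ago2 was at 38.4 and 34.7 TPM at day 7, at 24.8, 20.3 and 17.7 TPM in 4F at day 21 and at 18.7 and 20.4 TPM in 8F. Day 7 lies above all day 21 libraries, and the factor sets overlap at day 21. In 4F the mean was 1.74-fold lower at day 21, a difference of -0.79 ± 0.19 (SE, limma, adjusted p = 0.0171). It passed in 16 of 18 other settings, with adjusted p = 0.0828 without day 7 replicate 1. Ago2 was nonetheless the Argonaute gene with the highest level in every library, with 38.8% and 42.9% of the summed Argonaute TPM at day 7, 49.8%, 50.4% and 43.2% in 4F at day 21 and 48.6% and 53.4% in 8F. Its mean share was higher by 6.90 percentage points at day 21 in 4F, where the groups do not overlap (exact two-sided permutation test, p = 0.2, the smallest possible).

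Ago3 was at 22.3 and 17.7 TPM at day 7, at 15.0, 12.2 and 14.3 TPM in 4F at day 21 and at 14.8 and 13.3 TPM in 8F. Day 7 lies above day 21, but the difference in 4F of -0.50 ± 0.21 (SE) had limma's adjusted p = 0.109. It passed with median-of-ratios rescaling (-0.83, adjusted p = 0.0171), quantile normalization (-0.72, adjusted p = 0.0297) and voom (-1.05, adjusted p = 0.000806). The ratio of Ago1 to Ago3, neighbours on the chromosome, was 1.18 and 0.965 at day 7, 0.527 to 0.638 in 4F at day 21 and 0.258 and 0.299 in 8F, with no overlap between groups (exact two-sided permutation test between the days in 4F, p = 0.2, the smallest possible).

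Ago4 showed the widest difference of the set. It was at 11.8 and 11.3 TPM at day 7, at 2.21, 0.0331 and 0.275 TPM in 4F at day 21 and at 1.19 and 0.509 TPM in 8F. All day 21 libraries lie far below day 7. The values at day 21 in 4F correspond to an estimated 72, 1 and 8 reads, and replicate 2 is below the 0.0993 TPM that 3 reads would give, so the size of the difference is imprecise and intervals from counting would cover counting error only. The mean was 13.7-fold lower, a difference of -2.95 with a 95% interval from -4.32 to -1.59 (limma, adjusted p = 0.00693). The fold rests on replicate 1 of 4F at day 21: without it the mean was 0.154 TPM and 75-fold lower than at day 7, a difference of -3.45 (adjusted p = 0.00318). It passed in 18 of 18 other settings, with sizes from -1.52 (pseudocount of 5) to -5.68 (voom on recovered reads). Its share of the summed Argonaute TPM was 11.9% and 14.0% at day 7, and 4.43%, 0.0823% and 0.671% in 4F at day 21.

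**Figure D2:**
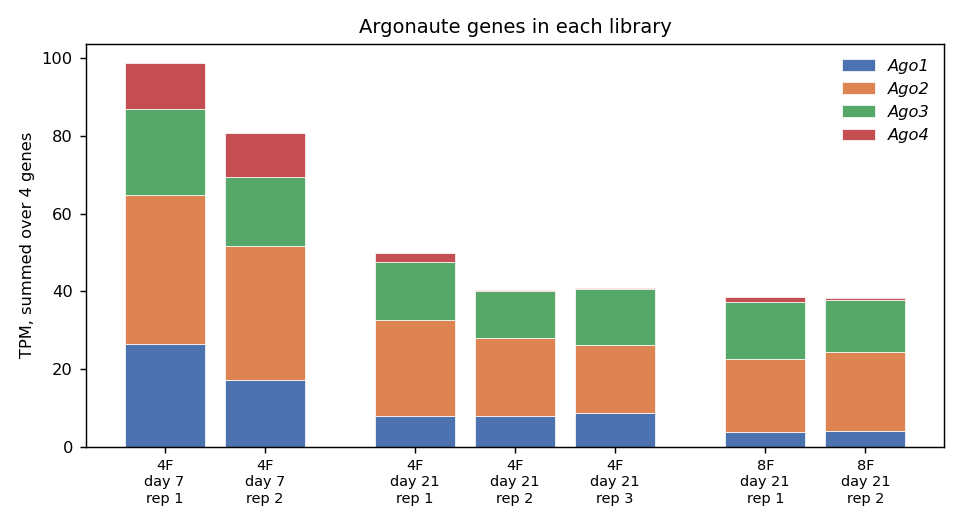
Summed TPM of the 4 Argonaute genes in each of the 7 libraries, stacked by gene from Ago1 at the bottom to Ago4 at the top, on an axis that starts at 0. The sums lie between 80.8 and 98.8 TPM at day 7 and between 38.2 and 49.9 TPM at day 21, and Ago2 holds 38.8% to 53.4% of each bar.

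In 4F, 0 of the 10 genes were higher and 3 were lower at day 21 than at day 7, against 25.3% higher and 15.3% lower among all genes tested. For either direction the share over all genes was 40.6%. The median difference was -0.19 over the 10 genes and 0.17 over all genes. An unadjusted p under 0.05 was found for 5 of the 10, against 48.6% of all genes. The groups did not overlap for 6 of the 10, of which 2 were higher and 4 lower, against 56.7% of all genes, 33.8% higher and 22.9% lower. The numbers called over all genes depended on the scaling: the share of calls that were higher at day 21 was 62.3% in TPM, 52.0% after quantile normalization, 48.4% after rescaling by median of ratios and 37.3% with voom. Ago1, Ago2 and Ago4 were lower under each of these. The summed endoderm and trophoblast markers were higher at day 7, as given above, where Ago1, Ago2 and Ago4 were higher too. Of these 5 markers 2 were at or above 1 TPM in every library, Hand1 was at 12.0 and 63.6 TPM at day 7 and listed at 0 in 4F at day 21, Sox17 was listed at 0 in all 5 of the 4F libraries, and Gata4 was higher at day 21 (32.4 to 46.3 TPM against 3.07 and 1.57 TPM). The part of such cells in the result was not tested.

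**Figure D3:**
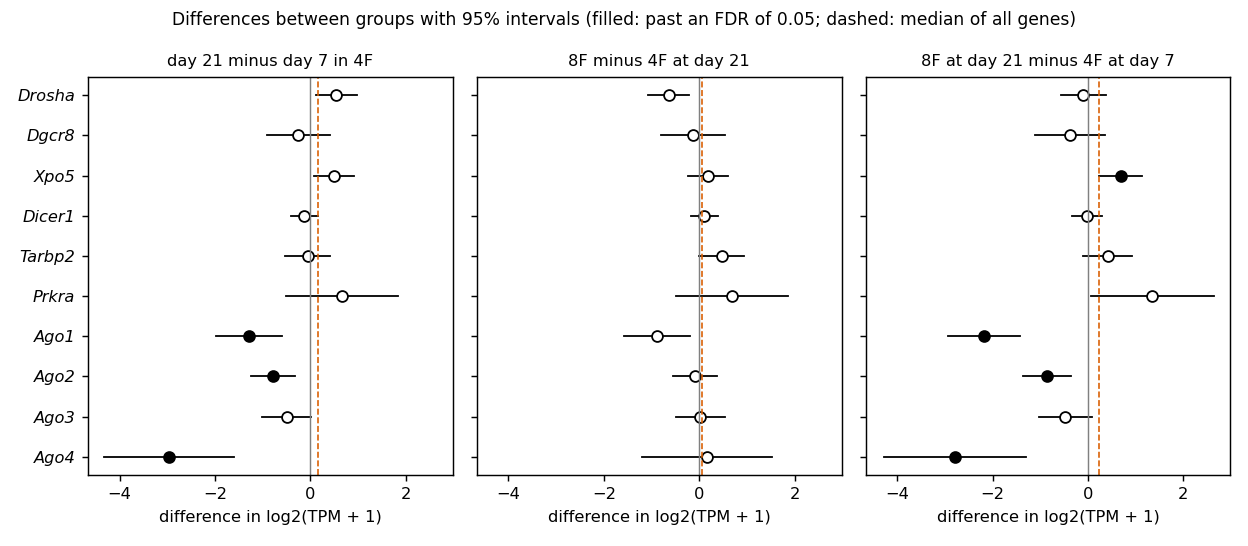
Difference in log2(TPM + 1) of each gene with its 95% interval from limma, in 1 panel for each comparison, with filled points past an FDR of 0.05 and a dashed line at the median of all genes tested. Ago1, Ago2 and Ago4 are filled in both comparisons with day 7, Xpo5 in 8F at day 21 against day 7, and no point is filled between 8F and 4F at day 21.

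Between the factor sets at day 21, 0 of the 10 genes passed the threshold, against 8.37% of all genes tested, 3.95% higher and 4.41% lower (limma on log2(TPM + 1)). At an unadjusted p under 0.05 there were 2 (Drosha and Ago1), against 22.3% of all genes, while voom on recovered reads also gave 0 past the threshold and array weights gave 2. The groups did not overlap for 5 of the 10, of which Drosha and Ago1 were lower and Xpo5, Tarbp2 and Prkra higher in 8F, against 43.8% of all genes, 19.8% lower and 24.1% higher. The Drosha difference was -0.64 with a 95% interval from -1.07 to -0.21 (adjusted p = 0.0867), a mean 1.56-fold lower in 8F. It passed when either day 7 library was left out (adjusted p = 0.0378 and 0.0382) and with array weights (adjusted p = 0.0284). The Ago1 difference was -0.89 with an interval from -1.58 to -0.20 (adjusted p = 0.127), a mean 2.07-fold lower, and it passed with array weights alone (adjusted p = 0.0363). The intervals of Ago2 (-0.54 to 0.38), Ago3 (-0.48 to 0.54) and Ago4 (-1.20 to 1.53) include 0. The 8F values were written with up to 17 decimals and the 4F values with up to 9, so the factor set and a difference in how the columns were made cannot be told apart.

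Set against 4F at day 7, 8F at day 21 had 1 of the 10 genes higher (Xpo5) and 3 lower (Ago1, Ago2 and Ago4), against 24.2% higher and 13.0% lower among all genes tested and 37.2% in either direction. This comparison shares its day 7 libraries with the one within 4F and joins time, Shield1 in fresh medium, cell number and factor set. Ago1 differed by -2.18 ± 0.32 (SE, limma, adjusted p = 0.00276), a mean 5.56-fold lower, and passed in 18 of 18 other settings. Ago2 differed by -0.87 ± 0.21 (SE, adjusted p = 0.0186) and passed in 15 of 18, with adjusted p = 0.121 and 0.0892 without 8F replicate 1 and 2 and 0.076 without day 7 replicate 1. Ago4 differed by -2.79 ± 0.62 (SE, adjusted p = 0.0141) and passed in 14 of 18, with adjusted p = 0.0602 and 0.0996 without 8F replicate 1 and 2 and 0.0514 without day 7 replicate 1. An unadjusted p under 0.05 was found for 5 of the 10, against 47.0% of all genes. The groups did not overlap for 7 of the 10, of which 3 were higher and 4 lower, against 72.3% of all genes, 43.9% higher and 28.4% lower.

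The other genes listed for the pathway moved in both directions between day 7 and day 21 in 4F. Of 41 listed genes, all tested, 20 were higher and 9 lower at day 21, and 12 did not pass. Among all genes tested 25.3% were higher and 15.3% lower. The median difference was 0.41 against 0.17 over all genes. Without the 5 genes matched by endo-siRNAs, given below, 15 of 36 were higher and 9 lower, with a median of 0.35. With a filter of 5 TPM in 2 libraries, 5435 of all 15242 genes were higher and 2461 lower, with a median of 0.36. The shares over all genes were not matched for level. Among 3 Microprocessor partners, the RNA helicase genes Ddx17 (81.6 to 45.3 TPM in the group means, -0.83 in log2(TPM + 1)) and Ddx5 (385 to 243 TPM, -0.66) were lower, and Srrt did not pass. Among 8 genes of precursor export, tailing and turnover, 5 were higher and 1 was lower, beside the 25.3% and 15.3% of all genes. Tut4, which adds uridines to let-7 precursors, fell from a mean of 25.2 TPM to 4.05 TPM, whereas Lin28a, whose protein recruits it, rose from 43.7 TPM to 116 TPM and the deadenylase gene Parn from 32.9 TPM to 82.2 TPM. Dis3l2 and Tent2 were also higher (1.11 and 0.67), and each passed in fewer other settings, 9 and 6 of 18.

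Genes of Argonaute loading and turnover split as well, with 4 of 7 higher and 2 lower, against 25.3% and 15.3% of all genes. The chaperone gene Hsp90ab1, whose protein helps load Argonautes, rose from a mean of 1093 TPM to 3284 TPM (1.59, limma, adjusted p = 0.000314), and Hsp90aa1 from 2632 TPM to 4636 TPM (0.84, adjusted p = 0.0183, passing in 11 of 18 other settings). Tsnax, a subunit of the nuclease C3PO, rose from 54.7 TPM to 255 TPM while its partner Tsn fell from 30.4 TPM to 19.9 TPM, the latter passing in 9 of 18 other settings. Trim71, a ubiquitin ligase gene and let-7 target, fell from 176 TPM to 90.9 TPM and passed in all 18.

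Among 10 silencing effectors, 4 were higher and 1 was lower, against 25.3% and 15.3% of all genes. The other 5 did not pass, among them the 3 GW182 genes Tnrc6a, Tnrc6b and Tnrc6c, whose proteins bind Argonautes. Mov10, an RNA helicase gene linked to Argonaute complexes, was at 32.4 and 41.1 TPM at day 7, and at 0, 0.903 and 0 TPM in 4F and 0.428 and 0.505 TPM in 8F at day 21. All day 21 values lie under 1 TPM. Mov10 thus passed the filter only through its day 7 values, which favoured its call in 4F (limma, adjusted p = 0.000352). It was not tested when either day 7 library was left out. Fxr1 (0.97), Ipo8 (0.96), Fmr1 (0.77) and Gigyf2 (0.77), genes of RNA-binding proteins, an importin and a translation repressor, were higher. Among 8 genes of double-stranded RNA binding and editing, 2 were higher and 3 lower, again beside 25.3% and 15.3% of all genes. Eif2ak2, the gene of PKR, a kinase that senses double-stranded RNA, was at 34.9 and 38.6 TPM at day 7, at 1.67, 0.135 and 0.653 TPM in 4F and at 0.235 and 0.485 TPM in 8F at day 21. Both day 21 groups thus lie far below day 7 (limma, adjusted p = 0.000627 in 4F). Of the day 21 libraries, only replicate 1 of 4F reached 1 TPM. Eif2ak2 thus passed the filter only with its day 7 values, which favoured its call as for Mov10. Adar, an RNA editing enzyme gene, fell from a mean of 38.9 TPM to 21.1 TPM, Dhx9 from 76.4 TPM to 57.4 TPM with 7 of 18 other settings passing, and Stau1 (1.25) and Stau2 (1.03) were higher.

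The 5 genes known to be matched by endo-siRNAs in mouse oocytes were all higher at day 21 in 4F, against 25.3% of all genes, with a median difference of 1.41 against 0.17 over all genes. Kif4 rose from a mean of 116 TPM to 795 TPM (2.78), Pdzd11 from 26.1 TPM to 123 TPM (2.19), Ppp4r1 from 22.5 TPM to 60.2 TPM (1.41), Rangap1 from 52.8 TPM to 139 TPM (1.36) and Hdac2 from 108 TPM to 149 TPM (0.46). Hdac2 is the exception to a stable direction, with -0.16 after quantile normalization and -0.08 with voom. Some of these genes are known for pseudogene copies. The authors kept uniquely mapped reads only, so levels of genes that share sequence with a copy are uncertain. Overlaps of these 5 genes with each other or with other genes were not examined, so they may not be 5 independent genes. In TPM 4 of the 5 (Kif4, Pdzd11, Ppp4r1 and Rangap1) passed in 18 of 18 other settings.

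**Figure D4:**
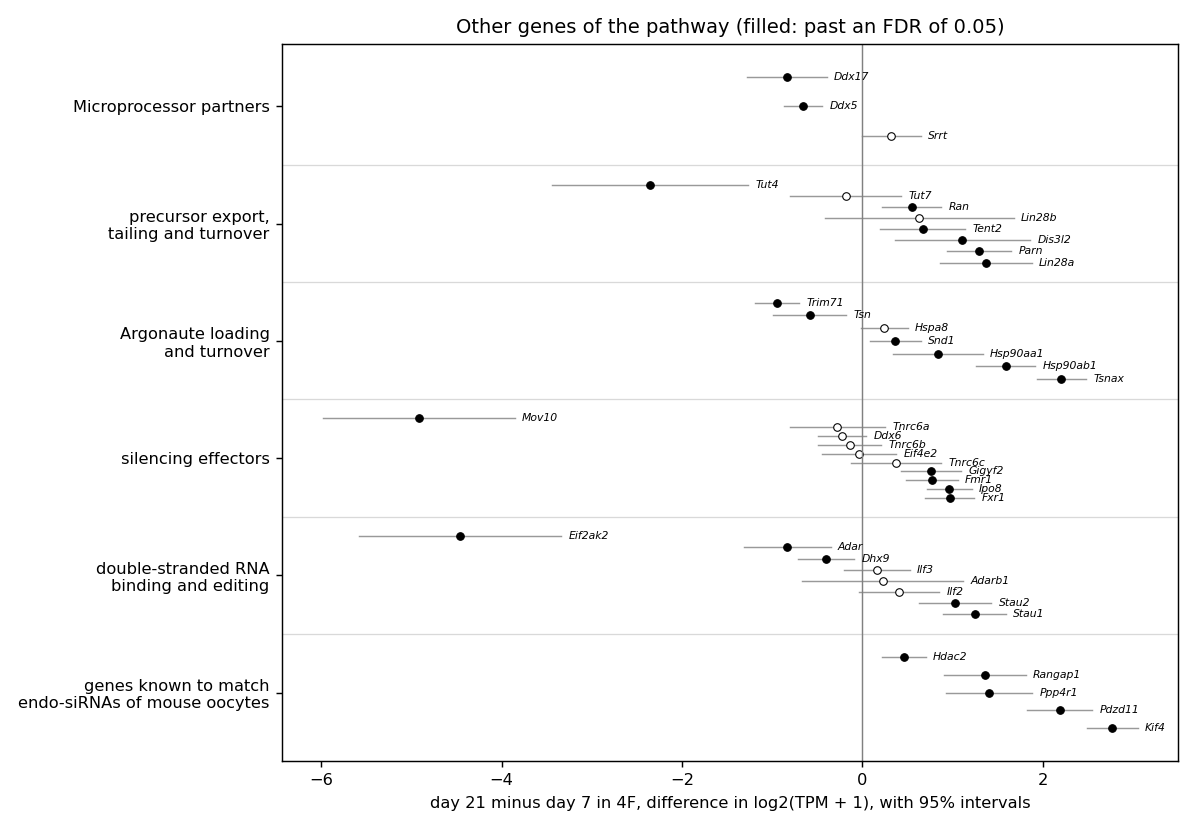
Difference in log2(TPM + 1) between day 21 and day 7 in 4F for the 41 other listed genes, in 6 groups. The groups hold 36 genes of the pathway by role and 5 genes matched by endo-siRNAs. The 95% intervals are from limma, and filled points are past an FDR of 0.05. Mov10 and Eif2ak2 lie farthest to the left (-4.92 and -4.46), and all 5 genes matched by endo-siRNAs lie to the right of 0.

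Between 8F and 4F at day 21, 1 of these 41 genes was higher and 6 were lower, against 3.95% higher and 4.41% lower among all genes. The median difference was -0.29 against 0.06 over all genes. Without the genes matched by endo-siRNAs, 1 of 36 was higher and 4 were lower. Tnrc6c was at 42.8, 34.6 and 36.5 TPM in 4F and at 66.9 and 78.4 TPM in 8F, a difference of 0.92 ± 0.21 (SE, limma, adjusted p = 0.0459) that passed in 8 of 18 other settings. Hsp90ab1 was at 3560, 3263 and 3030 TPM in 4F and at 1649 and 1716 TPM in 8F, a difference of -0.96 ± 0.14 (SE, adjusted p = 0.0133) that passed in 14 of 18. The other lower genes were Fmr1 (-0.67), Dhx9 (-0.66), Hspa8 (-0.65), Kif4 (-0.62) and Hdac2 (-0.49), each passing in 9 to 12 of 18 other settings. Each of these 7 calls was lost without either 8F library. Against 4F at day 7, 15 of the 41 genes were higher and 10 lower in 8F at day 21. Among all genes 24.2% were higher and 13.0% lower, and the median difference was 0.09 against 0.24 over all genes. Without the genes matched by endo-siRNAs, 11 of 36 were higher and 10 lower, with a median of 0.04. In that comparison Mov10 (-4.68, kept by the filter through day 7 alone), Eif2ak2 (-4.80, kept only with its day 7 values), Tut4 (-2.66), Pdzd11 (2.16) and Kif4 (2.15) differed most.

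The genes whose profile over the 7 libraries was most like that of Dicer1 were sought among 9943 genes whose mean reached 10 TPM, by the root mean square difference of centred log2(TPM + 1). They were Nptn (0.0553), Glrx3 (0.0628), Tnrc6b (0.0636), 2610002M06Rik (0.0712) and Slc4a2 (0.0761). All but Slc4a2 overlapped in range between day 7 and day 21 in 4F, as Dicer1 did. Tnrc6b, a GW182 gene, was at 33.4 and 35.5 TPM at day 7, at 35.3, 29.8 and 28.8 TPM in 4F at day 21 and at 36.5 and 37.1 TPM in 8F. Most like Ago2 were Pigm (0.0968), Lrrc58 (0.1), Tnpo3 (0.105), Zbtb37 (0.106) and Trap1 (0.11), each higher in both day 7 libraries than in all 5 at day 21. Pigm, a gene of glycosyl anchor synthesis, was at 35.5 and 29.8 TPM at day 7 and at 17.1 to 23.6 TPM at day 21. The likeness is a description over 7 libraries in 3 groups.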

How the data were processed

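RNA of pooled mini-oocytes was sequenced with the SMART-seq Stranded kit on total RNA, and the deposited table gives TPM per gene. According to the methods, the authors used Trim Galore! for trimming and HISAT2 for alignment to mm10, took out rRNA reads by bedtools, and counted reads with a unique position on GENCODE vM25 exons in featureCounts, where a read that overlaps several genes gives a fraction to each. Tool versions are not given in the sources used here. The methods name different NovaSeq instruments with different read lengths and do not say which libraries each served. Whether this split follows day or factor set is therefore not known. Unique mapping lowers genes with near-identical copies. The authors tested counts with edgeR, and those counts were not used here.

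Genes at or above 1 TPM in at least 2 of 7 libraries (21780 of 55364) were tested on log2(TPM + 1), a scale that understates changes of low genes, with limma 3.58.1 in R 4.3.3. The fit held all 7 libraries in 3 groups with no block, used eBayes with a trend, and adjusted two-sided p-values by Benjamini-Hochberg over all genes tested at an FDR of 0.05. The fit was tested on simulated data. Ratios and shares within a library were compared by exact permutation tests in SciPy 1.17.1.

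Read numbers were estimated from the TPM steps and exon lengths of GENCODE vM21, which matched 54312 genes with their version (Ago1 was matched without it). Of low values, 77.7% to 84.0% were whole reads within 0.02 of a read and 98.9% to 99.6% whole sixths. Depth was 9515596 to 18045745 reads on genes. Replicates of a group differed by more than sampling noise (chi-square per degree of freedom of 9.77 to 35.4). Promoters came from RefSeq (GRCm38.p6). The 10 genes and all lists were chosen with earlier results of these data known. Named in the text are all 10 genes, up to 5 genes past the threshold in each pathway list by size of difference, and the 5 genes most like Dicer1 and Ago2. Srrt, Tnrc6a, Tnrc6b and Tnrc6c, which did not pass with time, and the markers were added for context. Alternatives were other pseudocounts, filters, scalings, variance settings, a replicate block, omission of each library and, chosen after the data were seen, voom on recovered reads.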

Additional observations from a re-analysis of the deposited data

How the results depend on the processing

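Of the 3 calls in 4F between day 21 and day 7, Ago4 held under all 18 other settings, Ago1 under 17 and Ago2 under 16, and all kept their direction. The number of the 10 genes past the threshold was 5 under quantile normalization, 5 under median-of-ratios rescaling and 6 under voom, all lower, against 3, and 3 to 4 when each library was left out. Without day 7 replicate 1 the 3 were Drosha and Xpo5, higher, and Ago4, lower. Between 8F and 4F at day 21 it was 0, except 2 with array weights, and 0 to 1 when each library was left out, the 1 being Drosha without either day 7 library. For 8F at day 21 against day 7 it was 4, with Xpo5 the higher one. It was 4, 6 and 5 under median-of-ratios rescaling, quantile normalization and voom, all lower and without Xpo5, and 1 to 4 when each library was left out, falling to 1 (Ago1) without either 8F library and to 2 without day 7 replicate 1. With the replicate number as a block the counts were 2, 3 and 0 for day 21 against day 7 in 4F, 8F against day 7, and 8F against 4F, with Ago2 lost in the first. Same-numbered libraries correlated by 0.0111 at most in their deviations, the labels do not say that a number marks samples made together, and the block left 164 calls over all genes between 8F and 4F, against 1822.

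Several differences changed sign, among them Ran and Hdac2, which had passed in TPM, and Drosha and Xpo5, which had not, and the cause was not tested. For 8F minus 4F at day 21, Dgcr8 was 0.0129 and Ago2 0.0602 with voom, Ago3 was -0.0154 and Ago4 -0.398 under quantile normalization, and Ago4 was -0.00419 under the replicate block. With each library left out in turn, Ago2 ran from -0.192 to 0.0436, Ago3 from -0.0563 to 0.0968 and Ago4 from -0.156 to 0.663. For day 21 minus day 7 in 4F under quantile normalization, Drosha was -0.0735, Ran -0.0465, Snd1 -0.126 and Hdac2 -0.16. With voom Xpo5 was -0.00814, Ran -0.0123, Snd1 -0.161 and Hdac2 -0.0833, and Tarbp2 was 0.044 under the replicate block. With each library left out, Dgcr8 ran from -0.618 to 0.121, Tarbp2 from -0.136 to 0.044 and Prkra from -0.0699 to 1.40. For 8F at day 21 minus 4F at day 7, Drosha ran from -0.347 to 0.155 with each library left out, and quantile normalization gave -0.015 for Ran and -0.0119 for Gigyf2. Leave-one-out fits that left 1 library in a group assumed that it varies like the other groups. The Argonaute share of Ago2 does not depend on library scaling, and its values at day 7 and day 21 in 4F do not overlap. Leaving out a library could therefore not reverse that difference, so its direction is no added check. Depth limits Ago4 at day 21 and Prkra at day 7 most.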
